A study of Mus musculus with 31 samples.

Results

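The antioxidant enzyme genes described here are the 10 genes Prdx1, Prdx2, Prdx3, Prdx5, Prdx6, Sod1, Sod2, Cat, Gpx1 and Gpx4, taken by symbol from the 48709 genes of the count files. They were measured in the basolateral amygdala (BLA), a nucleus that forms fear memories, in mice carrying extra copies of human CYFIP1 and in wild-type mice. RNA was sequenced by QuantSeq, in which reads start near the poly(A) tail, so that long and short transcripts give counts on the same scale. All 31 mice were C57BL/6N animals, and their left and right BLA punches were pooled. The WT group held 16 mice (8 males and 8 females, 58 to 61 days old). The CYFIP1 OE group held 15 mice (7 males and 8 females, 58 to 77 days old), and all 4 mice aged 77 days were CYFIP1 OE animals of the line labelled 1. The transgene was a human bacterial artificial chromosome, and each line stems from a separate founder. By label, line 1 gave 8 WT and 7 CYFIP1 OE mice, and line 3 gave 8 and 8. In the line labelled 1, 7 of the 8 WT mice shared a name prefix that no CYFIP1 OE mouse had, so that genotype and this group of animals could not be told apart there. The labels do not say which mice were littermates.

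Cells make superoxide and hydrogen peroxide as they respire, and the members of this group remove them in steps. Superoxide dismutases turn superoxide into hydrogen peroxide, which is then reduced by peroxiredoxins with electrons from thioredoxin, by glutathione peroxidases with electrons from glutathione, or split by catalase in peroxisomes. Several of these genes are targets of NRF2, a transcription factor that binds antioxidant response elements when cells meet oxidants. In brain, the enzymes differ in their main cell type, with some more abundant in glia and others in neurons.

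The letters TGACNNNGC, the core of the antioxidant response element, were searched on both strands in the 300 bases around each RefSeq start site (GRCm38.p6), 250 before and 50 after it. Of the 10 genes, 9 had a promoter sequence in the set used, and Prdx6 had no entry and was not searched. The 9 genes had 12 promoters in all. A gene was counted if any of its promoters held the letters, whereas the shares of all promoters count each promoter singly. The core was found in 2 of the 9, Prdx1 and Sod1, and in 12.4% of all 32851 promoters searched. The stretch of each that lies before the first annotated transcribed base is printed here, because these are the 2 searched members that hold the core. The core is in capitals. The core starts at base -133 from the RefSeq start site of Prdx1 (chr4:116685349-116685543, plus strand) and at base -56 from that of Sod1 (chr16:90220512-90220753, plus strand). In both it reads on the minus strand.
Prdx1: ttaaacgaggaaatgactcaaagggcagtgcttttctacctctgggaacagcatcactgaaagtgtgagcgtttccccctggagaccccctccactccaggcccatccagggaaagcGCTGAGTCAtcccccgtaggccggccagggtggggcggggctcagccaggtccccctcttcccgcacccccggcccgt
Sod1: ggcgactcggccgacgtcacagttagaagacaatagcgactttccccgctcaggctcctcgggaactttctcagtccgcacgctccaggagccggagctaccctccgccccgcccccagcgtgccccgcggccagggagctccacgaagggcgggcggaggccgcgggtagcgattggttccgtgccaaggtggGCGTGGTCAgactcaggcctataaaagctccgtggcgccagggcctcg
The letters GGGCGG (a GC box) occurred in all 9 and in 35.7% of all promoters. The letters TATAAA occurred in Prdx1, Prdx3 and Sod1 and in 13.6% of all promoters. These matches are descriptions of the sequence and say nothing about binding in these mice.

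Total counts per mouse ranged from 5286708 to 8685308. The mouse gene Cyfip1 was at 33.5 ± 4.48 CPM (normalised counts scaled to a common library size, SD, n = 16) in WT and 33.0 ± 3.66 CPM (n = 15) in CYFIP1 OE mice. The transgene is human, so the mouse gene does not check the genotype labels. The defining markers of BLA principal neurons varied widely: Slc17a7, the vesicular glutamate transporter of these neurons, ranged from 3.01 to 1109 CPM. The summed level of 10 markers of striatal projection neurons, which lie next to the BLA, ranged from 449.1 to 6344 CPM in WT and from 560.5 to 7163 CPM in CYFIP1 OE mice. The punches thus differed widely in markers of both kinds of neuron. The connectivity of a mouse, a Z-score of how strongly its profile correlates with the others, was -4.74 in 1 CYFIP1 OE mouse, a male of line 3, and at least -1.18 in the others. In bulk tissue, fewer cells of a type and less RNA per cell cannot be told apart.

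All 10 genes passed the filter on low counts, and their levels spanned a wide range. Sod1 was the most abundant at 397.0 ± 68.1 CPM (SD, n = 31), followed by Prdx2 at 199.4 ± 20, Prdx1 at 162.0 ± 31.3 and Prdx6 at 156.5 ± 30.1 CPM. Gpx1, Gpx4 and Prdx5 followed with means of 135.3, 132.3 and 122.0 CPM. Sod2 was at 78.8 ± 10.4 CPM, and Cat and Prdx3 were lowest at 20.9 ± 6.51 and 15.2 ± 3.16 CPM. Sod1 exceeded Prdx2 in 31 of 31 mice, Prdx5 exceeded Sod2 in 31 of 31 and Sod2 exceeded Cat in 31 of 31. The other neighbours crossed in some mice: Prdx2 exceeded Prdx1 in 27, Prdx1 exceeded Prdx6 in 22, Gpx1 exceeded Gpx4 in 19 and Cat exceeded Prdx3 in 23 of the 31. The coefficient of variation over the 31 mice ran from 10% for Prdx2 to 31.1% for Cat. It was above the median of 25.7% over the 10965 genes with a mean of at least 5 CPM for Cat and Gpx1 (27.9%), and below it for the other 8.

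**Figure D1:**
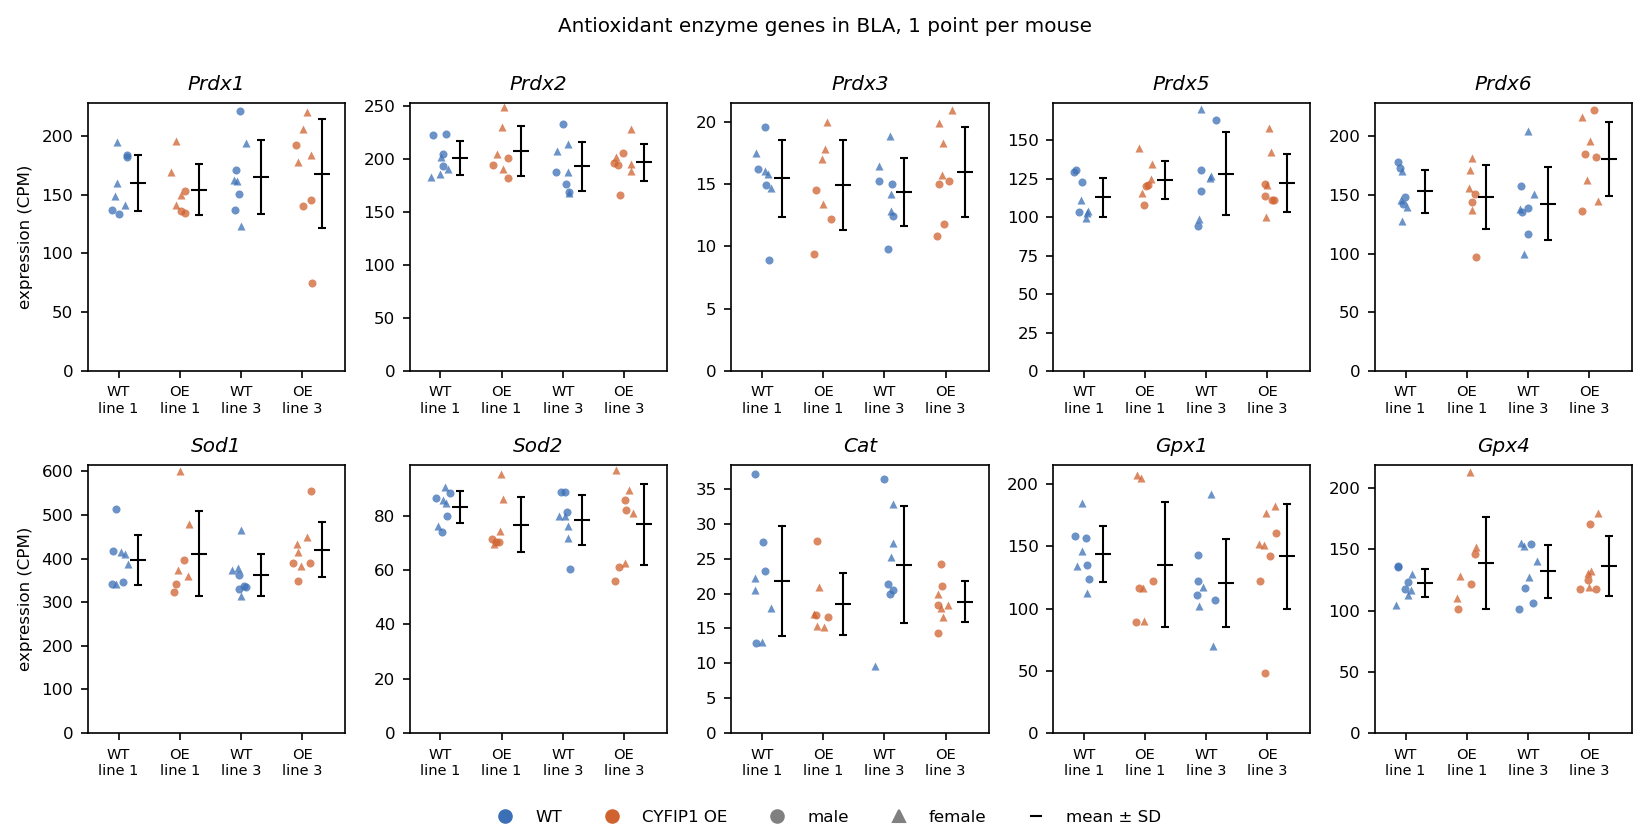
Expression in CPM (vertical axes, each from 0) of the 10 genes, with 1 point per mouse in 4 groups by genotype and line, circles for males and triangles for females, and the mean ± SD as bars. The groups overlap in each panel, and single mice stand apart, such as the CYFIP1 OE mouse at 48.2 CPM for Gpx1 and 75.1 CPM for Prdx1.

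The first comparison asked whether extra CYFIP1 changes these genes in the BLA. No member passed an adjusted p of 0.05 between CYFIP1 OE and WT mice (edgeR quasi-likelihood F test with sex and line in the model, Benjamini-Hochberg over 17428 genes). The background was the same, since 0 of the 17428 genes passed (0%). DESeq2 also passed 0 members. At an unadjusted p of 0.05, edgeR passed 0 of the 10 members and 750 genes, or 4.3% of all genes. DESeq2 passed 0 members and 814 genes. The log2 fold change was positive for 7 members and negative for 3, with a median of 0.03, and the median over all genes was -0.005. The 95% confidence intervals of the 10 genes reached from a log2 fold change of -0.58 (Cat) to 0.36 (Prdx6), a 0.669-fold to a 1.28-fold level. Differences within these bounds remain possible.

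The peroxiredoxins are taken first. Prdx1 encodes a cytosolic enzyme of the family that also acts as a chaperone and is prominent in glia. Its levels in WT mice had a lowest, median and highest value of 123.2, 160.8 and 220.9 CPM, and those in CYFIP1 OE mice 75.1, 152.7 and 220.0 CPM. The groups overlapped almost fully apart from the mouse of low connectivity, which had the lowest level of all. The log2 fold change was -0.03 ± 0.11 (SE, adjusted p = 0.999 by edgeR, 95% interval -0.24 to 0.18). It was 0.03 without the mouse of low connectivity. With 5 surrogate variables, which are unknown sources of variation estimated from the data, in the model, it was 0.13 with an unadjusted p of 0.0336.

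Prdx2 encodes the other abundant cytosolic peroxiredoxin, which is found in neurons. Its levels were 168.0, 192.0 and 233.4 CPM (lowest, median and highest) in WT and 165.7, 195.9 and 249.0 CPM in CYFIP1 OE mice. It varied least among the 10 genes, and its interval was narrow, from -0.10 to 0.17 around a log2 fold change of 0.04 ± 0.07 (SE, adjusted p = 0.999 by edgeR). Prdx3 encodes the mitochondrial peroxiredoxin. Its levels were 8.88, 15.1 and 19.6 CPM in WT and 9.41, 15.2 and 20.9 CPM in CYFIP1 OE mice, and the log2 fold change was 0.03 ± 0.11 (95% interval -0.19 to 0.25). The groups overlapped over nearly their whole range.

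Prdx5 encodes a peroxiredoxin of mitochondria, peroxisomes and cytosol. Its levels were 94.1, 120.1 and 170.7 CPM in WT and 100, 121.0 and 158.1 CPM in CYFIP1 OE mice, so that the range of CYFIP1 OE lay inside that of WT. Its log2 fold change was 0.03 ± 0.09 (95% interval -0.15 to 0.20). Prdx6 encodes a peroxiredoxin that uses glutathione, has phospholipase activity and is abundant in astrocytes. Its levels were 99.5, 144.1 and 204.3 CPM in WT and 97.5, 162.4 and 222.4 CPM in CYFIP1 OE mice. The WT mean was exceeded by 10 of 15 CYFIP1 OE mice, and the log2 fold change was 0.15 ± 0.10 (SE, adjusted p = 0.999 by edgeR, 95% interval -0.05 to 0.36). It was 0.04 (p = 0.68) with scores for 4 cell types (neurons, astrocytes, oligodendrocytes and microglia) in the model, and 0.08 (p = 0.307) with surrogate variables.

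Neither dismutase passed the test between genotypes. Sod1 encodes the copper-zinc superoxide dismutase of the cytosol, and its levels were 313.9, 367.5 and 512.5 CPM in WT and 322.9, 389.2 and 600.3 CPM in CYFIP1 OE mice. As for Prdx6, 10 of 15 CYFIP1 OE mice exceeded the WT mean, and the log2 fold change was 0.13 ± 0.09 (SE, adjusted p = 0.999 by edgeR, 95% interval -0.05 to 0.31). With the 4 cell type scores in the model it was -0.02. Sod2 encodes the manganese superoxide dismutase of mitochondria, and its levels were 60.4, 80.6 and 90.6 CPM in WT and 55.9, 74.3 and 96.6 CPM in CYFIP1 OE mice. The range of CYFIP1 OE was wider than that of WT on both sides, and the log2 fold change was -0.08 ± 0.08 (95% interval -0.24 to 0.08).

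Catalase had the largest fitted difference between genotypes among the 10 genes, and it did not pass the test. Cat levels were 9.58, 21.8 and 37.1 CPM in WT and 14.3, 18.0 and 27.6 CPM in CYFIP1 OE mice, with means of 23.0 ± 7.96 (SD, n = 16) and 18.7 ± 3.58 CPM (n = 15). The CYFIP1 OE values lay within the range of WT, and 2 of 15 exceeded the WT mean. The log2 fold change was -0.29 ± 0.14 (SE, 95% interval -0.58 to 0.01), with an unadjusted p of 0.0544 and an adjusted p of 0.999 by edgeR. It was -0.20 in line 1 and -0.35 in line 3, and 1 CYFIP1 OE mouse was above its WT mean in each line. Without a filter on low counts the unadjusted p was 0.0445, and with surrogate variables the log2 fold change was -0.14 (p = 0.329). The summed level of 12 oligodendrocyte markers had a median of 3525 CPM in WT (1484 to 9077) and 2529 CPM in CYFIP1 OE mice (1129 to 5215). The log2 fold change was negative for 12 of 12 of them, against 8934 of all 17424 gene symbols tested. Of the 12, 0 had an unadjusted p under 0.05, and their part in the Cat value was not tested. With the 4 cell type scores in the model, the log2 fold change of Cat was -0.21 (p = 0.18).

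Gpx1 encodes the main selenium-dependent glutathione peroxidase of the cytosol. Its levels were 70.2, 128.9 and 192.0 CPM in WT and 48.2, 142.4 and 207.4 CPM in CYFIP1 OE mice, a 4.3-fold range over all mice and the widest of the 10 genes. Its log2 fold change was 0.05 ± 0.15 (SE, adjusted p = 0.999 by edgeR, 95% interval -0.24 to 0.35). With the 4 cell type scores in the model it was larger, 0.20 (unadjusted p = 0.095 by edgeR). Gpx4 encodes the glutathione peroxidase that reduces lipid hydroperoxides in membranes and holds back ferroptosis. Its levels were 101.1, 125.2 and 155.5 CPM in WT and 101.0, 128.5 and 213.5 CPM in CYFIP1 OE mice, and the log2 fold change was 0.11 ± 0.09 (95% interval -0.08 to 0.30). The highest values of Sod1, Prdx2, Gpx1 and Gpx4 all came from the same mouse, a female CYFIP1 OE animal of the line labelled 1 aged 77 days. The lowest values of Sod1 and Cat both came from 1 female WT mouse of the line labelled 3 aged 58 days.

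**Figure D2:**
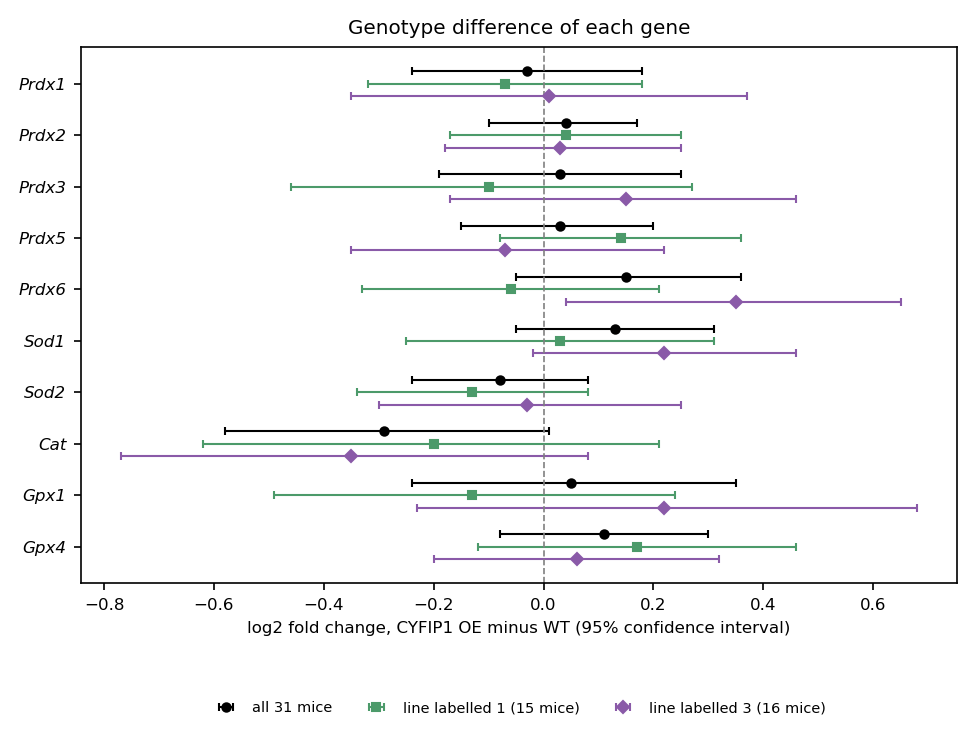
Log2 fold change of CYFIP1 OE over WT (horizontal axis, points, with 95% confidence intervals as bars) for the 10 genes in all 31 mice, in the 15 mice of line 1 and in the 16 of line 3. The intervals cross 0 except that of Prdx6 in the line labelled 3 (0.04 to 0.65).

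The lines were compared because each stems from its own transgenic founder. The comparison pools both genotypes, and WT mice carry no transgene, so it does not measure the transgene insertion alone. No group of mice with a shared name prefix spanned both lines, so line and these groups of animals could not be told apart. No member differed between the lines, with 0 of 10 at an adjusted p under 0.05 (0% of all genes) and 0 of 10 at an unadjusted p under 0.05 (3.31% of all genes, edgeR). The largest log2 differences, line labelled 3 minus line labelled 1, were 0.09 for Prdx6, Prdx5 and Cat and -0.09 for Gpx1, each within its standard error or close to it. The test of whether the genotype difference itself differed between lines gave 0 members at an adjusted p under 0.05 (0% of all genes) and 1 at an unadjusted p under 0.05, against 8.10% of all genes. That member was Prdx6. In the line labelled 3 its levels were 99.5, 138.3 and 204.3 CPM in WT and 136.0, 183.9 and 222.4 CPM in CYFIP1 OE mice. There the WT mean was exceeded by 7 of 8 CYFIP1 OE mice and every WT mouse by 2, and the log2 fold change was 0.35 ± 0.14 (SE, unadjusted p = 0.0269, adjusted p = 0.764 by edgeR). In the line labelled 1 the levels were 127.7, 147.1 and 177.9 CPM in WT and 97.5, 150.5 and 181.9 CPM in CYFIP1 OE mice, and the log2 fold change was -0.06 ± 0.13. The difference between these log2 fold changes was 0.40 ± 0.19 (SE, unadjusted p = 0.0461, adjusted p = 0.605 by edgeR). It gave p = 0.0516 without the mice aged 77 days and p = 0.0663 without the mouse of low connectivity, in which Prdx6 was highest of all at 222.4 CPM.

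Gpx1 had the second largest of these differences in size, 0.34 ± 0.29 (SE, unadjusted p = 0.245, adjusted p = 0.82 by edgeR). The WT mean was exceeded by 2 of 7 CYFIP1 OE mice in line 1 and by 7 of 8 in line 3. For the same term the log2 differences of the striatal projection neuron markers were positive for 10 of 10, with a median of 1.45. Over all genes, 8463 of 17424 gene symbols were positive. Of these markers 8 had an unadjusted p under 0.05, against 8.10% of all genes, and none passed after adjustment (smallest adjusted p = 0.535 by edgeR). Their part in the Gpx1 value was not tested.

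Sex was the only term for which a member had an unadjusted p under 0.01. In males Prdx3 had a lowest, median and highest level of 8.88, 14.5 and 19.6 CPM, and in females of 12.8, 16.7 and 20.9 CPM. Females were higher on average, with 14 of 16 above the male mean, although the ranges overlapped. The log2 difference, female minus male, was 0.32 ± 0.11 (SE, 95% interval 0.10 to 0.55), a 1.25-fold level, with an unadjusted p of 0.00555 and an adjusted p of 0.97 by edgeR. The means were 14 ± 3.51 CPM (SD, n = 8) in WT males and 15.8 ± 1.89 (n = 8) in WT females, and 12.7 ± 2.25 (n = 7) in CYFIP1 OE males and 17.9 ± 2.50 (n = 8) in CYFIP1 OE females. Thus 0 members passed after adjustment, against 0.0631% of all genes (11 genes), and 1 of 10 had an unadjusted p under 0.05, against 4.62% of all genes. The log2 difference was positive for 9 of the 10 genes, with a median of 0.10, and Cat was the exception at -0.20 ± 0.14. The 18 nuclear genes for subunits of the respiratory chain, listed for their role in oxidative phosphorylation (OXPHOS), were also positive in 18 of 18, with a median of 0.10 and 3 at an unadjusted p under 0.05. Markers of microglia were positive in 12 of 12 (median 0.17) and those of striatal projection neurons in 10 of 10 (median 0.25). Those of oligodendrocytes were negative in 10 of 12 (median -0.139) and those of astrocytes in 9 of 12 (median -0.049). Neuron markers were positive in 8 of 12, BLA principal neuron markers in 6 of 10 and endothelial and mural markers in 8 of 12. These cell type lists had 0 genes at an unadjusted p under 0.05, and their part in the members' values was not tested. Over all genes, 8113 of 17424 gene symbols were positive, with a median of -0.02. Genes of a list were measured in the same mice, so the signs within it are not independent.

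The other genes of the pathway were described from 5 lists of 66 genes, of which 60 passed the filter. None passed after adjustment for genotype, line, sex or the interaction (edgeR), and 4 of 60 had an unadjusted p under 0.05 for genotype, close to the 4.3% of all genes. Among 7 measured relatives of the members (Prdx4, Sod3, Gpx3 and others), Gpx8, an endoplasmic reticulum peroxidase, was at 2.63 ± 2.41 CPM (SD, n = 16) in WT and 1.41 ± 0.901 CPM (n = 15) in CYFIP1 OE mice, a log2 fold change of -0.85 ± 0.34 (SE, unadjusted p = 0.0182, adjusted p = 0.999). Of the 11 genes of the thioredoxin system, 4 had positive and 7 negative log2 fold changes. Among them Txnip, which binds and inhibits thioredoxin, was at 21.4 ± 12.1 CPM in WT and 15.0 ± 5.84 CPM in CYFIP1 OE mice (log2 fold change -0.51 ± 0.23, unadjusted p = 0.0339, adjusted p = 0.999). The 16 genes of the glutathione system had 9 positive and 7 negative values, and 0 at an unadjusted p under 0.05.

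Of 14 measured regulators and targets of NRF2, 9 had positive and 5 negative log2 fold changes, with a median of 0.06. The 1 with an unadjusted p under 0.05 was G6pdx, which makes NADPH in the pentose phosphate pathway. It was at 6.57 ± 1.55 CPM (SD, n = 16) in WT and 8.50 ± 2.43 CPM (n = 15) in CYFIP1 OE mice, a log2 fold change of 0.39 ± 0.15 (SE, unadjusted p = 0.0128, adjusted p = 0.999 by edgeR). Among 12 selenoproteins and genes for their synthesis, 6 were positive and 6 negative. Selenow, a small selenoprotein that binds glutathione, was at 49.8 ± 11.2 CPM in WT and 66.5 ± 35.1 CPM in CYFIP1 OE mice (log2 fold change 0.40 ± 0.17, unadjusted p = 0.0213, adjusted p = 0.999). The lists had at most 1 gene each at an unadjusted p under 0.05 for genotype.

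The genes were next compared with each other over the 31 mice, after sex and line had been removed from log2 CPM. These points share their library and its normalization. Of 45 pairs, 7 had an adjusted permutation p under 0.05 (100000 resamples, two-sided, Benjamini-Hochberg over 45 pairs), all 7 were positive, and the median r over the 45 pairs was 0.219. How many pairs of other genes would pass was not computed. These permutations and those of the marker scores below treated the 31 mice as exchangeable, although they fell into 10 groups by name prefix. Prdx2, Prdx5, Gpx4 and Sod1 formed a chain. The closest pair was Prdx2 and Gpx4 (r = 0.733, rho = 0.715, adjusted permutation p = 0.00045 for r and 0.0009 for rho), with r between 0.632 and 0.842 within each genotype and line and 0.646 without the 2 mice farthest from the median of Prdx2. Prdx2 and Prdx5 had r = 0.692 (rho = 0.637, adjusted permutation p = 0.00075 and 0.00517), and r = 0.633 without the 2 farthest mice. Sod1 and Gpx4 had r = 0.677 (rho = 0.576, adjusted permutation p = 0.00075 and 0.00866), with 0.376 in WT, 0.826 in CYFIP1 OE mice and 0.46 without the 2 farthest mice. Prdx5 and Gpx4 had r = 0.518 (rho = 0.563, adjusted permutation p = 0.0201 and 0.0103), and r = 0.523 without the 2 farthest mice.

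Prdx1 went with other partners. With Gpx1 it had r = 0.648 (rho = 0.585, adjusted permutation p = 0.00124 and 0.00866), with 0.259 in WT and 0.885 in CYFIP1 OE mice, 0.435 and 0.733 in the lines labelled 1 and 3, and 0.466 without the mouse of low connectivity, which was lowest in both genes. With Cat it had r = 0.561 (rho = 0.514, adjusted permutation p = 0.00697 and 0.0187), and r = 0.45 without the 2 farthest mice. The last of the 7 pairs was Prdx6 and Sod1 (r = 0.628, rho = 0.534, adjusted permutation p = 0.0018 and 0.0161), with 0.372 in line 1, 0.851 in line 3 and 0.674 without the 2 farthest mice. Whether these values differed between genotypes or lines was not tested. By rho 10 pairs passed, the 7 and 3 more: Sod1 and Gpx1 (rho = 0.567, adjusted permutation p = 0.0101, r = 0.197), Prdx1 and Prdx3 (rho = 0.492, adjusted permutation p = 0.0257, r = 0.435) and Prdx3 and Sod2 (rho = 0.491, adjusted permutation p = 0.0257, r = 0.445).

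Marker genes gave a view of which cells the values moved with. Each member was set against 8 scores, each the mean of standardized log2 CPM over 10 to 18 markers, over the same 31 mice. How many other genes would be related to these scores was not computed. Of the 80 relations, 18 had an adjusted permutation p under 0.05 (Benjamini-Hochberg over 80), 15 of them positive and 3 negative. The highest was that of Gpx1 with the striatal projection neuron score (r = 0.84, rho = 0.738, adjusted permutation p = 0.000267 for r and 0.0004 for rho). Within WT r was 0.789 and within CYFIP1 OE mice 0.886, 0.738 and 0.885 in the lines labelled 1 and 3, and 0.72 without the 2 mice farthest from the median score. Gpx1 also rose with the OXPHOS score (r = 0.67, rho = 0.678, adjusted permutation p = 0.0004 and 0.00064), with the microglia score (r = 0.616, rho = 0.70, adjusted permutation p = 0.00263 and 0.0008) and with the oligodendrocyte score (r = 0.525, rho = 0.481, adjusted permutation p = 0.0124 and 0.0245). Without the 2 farthest mice these 3 values were 0.573, 0.651 and 0.526. Within WT they were 0.397, 0.787 and 0.308, and within CYFIP1 OE mice 0.852, 0.529 and 0.734.

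Prdx1 was high in mice with high oligodendrocyte markers and low neuronal ones. Its r with the oligodendrocyte score was 0.729 (rho = 0.735, adjusted permutation p = 0.000267 and 0.000533), with 0.876 in WT, 0.623 in CYFIP1 OE mice, 0.79 and 0.754 in the lines labelled 1 and 3, and 0.695 without the 2 farthest mice. With the neuron score it was -0.681 (rho = -0.64, adjusted permutation p = 0.00064 and 0.0016), and with the BLA principal neuron score -0.555 (rho = -0.624, adjusted permutation p = 0.00836 and 0.00187). These were -0.581 and -0.553 without the 2 farthest mice. With the OXPHOS score it was 0.747 (rho = 0.738, adjusted permutation p = 0.000267 and 0.0004), and 0.664 without the 2 farthest mice. For the other glial scores, Prdx1 passed by rho and not by r, with r = 0.385 for microglia (adjusted permutation p = 0.0831) and 0.289 for astrocytes (adjusted permutation p = 0.187), the latter 0.712 in WT and -0.085 in CYFIP1 OE mice. Without the mouse of low connectivity, a CYFIP1 OE animal, r over the remaining mice was 0.539 for microglia and 0.649 for astrocytes. Sod2 had the same signs, with r = 0.528 for oligodendrocytes, 0.562 for OXPHOS and -0.50 for BLA principal neurons (adjusted permutation p = 0.0135, 0.00836 and 0.0198, rho = 0.467, 0.547 and -0.512). Without the 2 farthest mice these were 0.435, 0.533 and -0.414.

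**Figure D3:**
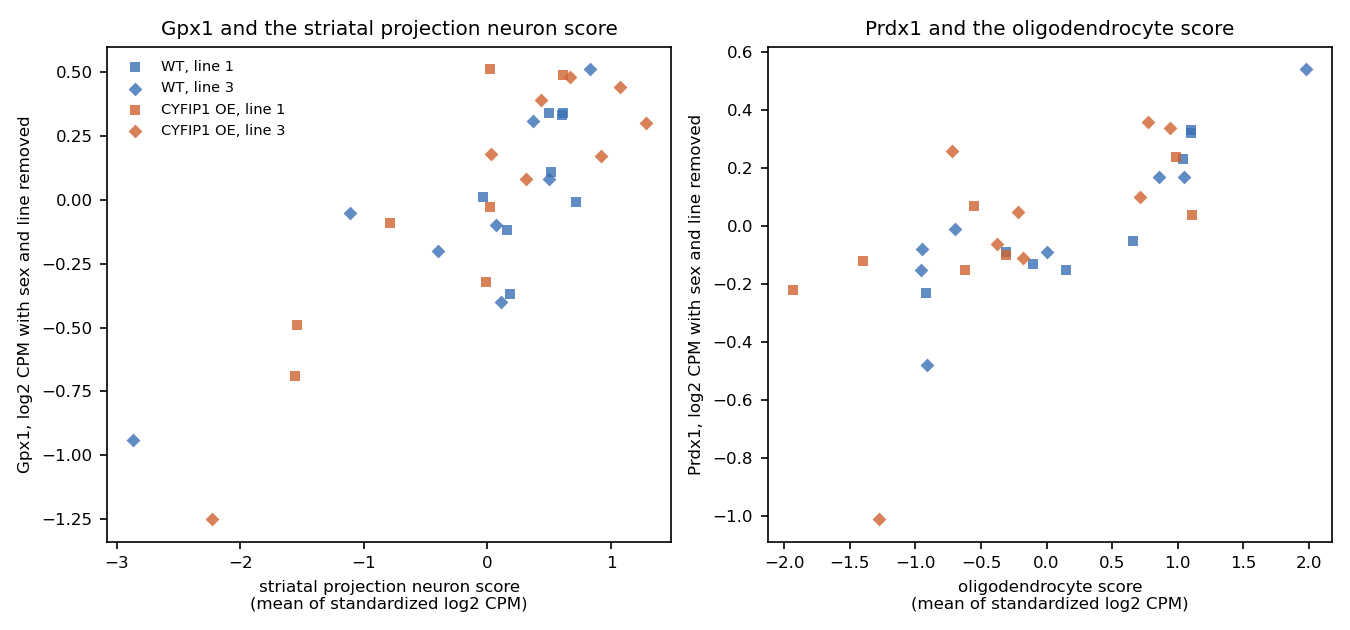
Gpx1 against the striatal projection neuron score and Prdx1 against the oligodendrocyte score (vertical axes, log2 CPM with sex and line removed; horizontal axes, mean of standardized log2 CPM of the markers), with 1 point per mouse, colours for genotype and shapes for line. Both genes rise with the score (r = 0.84 and 0.729), and the mouse of low connectivity is lowest in both panels.

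Prdx6 and Sod1 went with microglia. Prdx6 had r = 0.585 with the microglia score (rho = 0.702, adjusted permutation p = 0.00596 and 0.0006) and 0.51 with the astrocyte score (rho = 0.485, adjusted permutation p = 0.0178 and 0.0245), and 0.67 and 0.53 without the 2 farthest mice. Sod1 had r = 0.626 with the microglia score (rho = 0.669, adjusted permutation p = 0.00263 and 0.000667), and 0.60 without them. Prdx2 and Prdx5 went with astrocyte markers and OXPHOS genes. Prdx2 had r = 0.469 with the astrocyte score (rho = 0.483, adjusted permutation p = 0.0359 and 0.0245) and 0.581 with the OXPHOS score (rho = 0.568, adjusted permutation p = 0.00596 and 0.00896), and 0.382 and 0.59 without the 2 farthest mice. Prdx5 had r = 0.455 with the astrocyte score (rho = 0.415, adjusted permutation p = 0.0459 and 0.0496) and 0.534 with the OXPHOS score (rho = 0.553, adjusted permutation p = 0.0124 and 0.0103). For astrocyte markers its r was 0.675 within WT, 0.0182 within CYFIP1 OE mice and 0.304 without the 2 farthest mice, and for OXPHOS 0.52 without them. Prdx3, Cat and Gpx4 had no relation past the threshold for r. By rho, Prdx3 passed with the striatal projection neuron score (rho = 0.527, adjusted permutation p = 0.0158, r = 0.322) and the BLA principal neuron score (rho = -0.553, adjusted permutation p = 0.011, r = -0.426), and with 4 other scores. Cat passed by rho with the oligodendrocyte score (rho = 0.44, adjusted permutation p = 0.0417, r = 0.429), and Gpx4 with the astrocyte score (rho = 0.47, adjusted permutation p = 0.0311, r = 0.416) and the OXPHOS score (rho = 0.447, adjusted permutation p = 0.037, r = 0.334). By rho 33 of the 80 relations passed, the 18 and 15 more.

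The marker scores themselves were compared between genotypes. Of 8 scores, 0 differed after adjustment (two-sided permutation test, 100000 resamples, Benjamini-Hochberg over 8). The smallest p was that of endothelial and mural cells, 0.181 ± 0.422 (SD, n = 16) in WT and -0.193 ± 0.404 (n = 15) in CYFIP1 OE mice (p = 0.018, adjusted permutation p = 0.144). None of the 10 genes was related to that score past the threshold for r, and by rho Sod1 was (rho = -0.453, adjusted permutation p = 0.0337, r = -0.366). WT mice had an oligodendrocyte score of 0.192 ± 0.939 and CYFIP1 OE mice one of -0.205 ± 0.941 (permutation p = 0.248, adjusted 0.497).

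**Figure D4:**
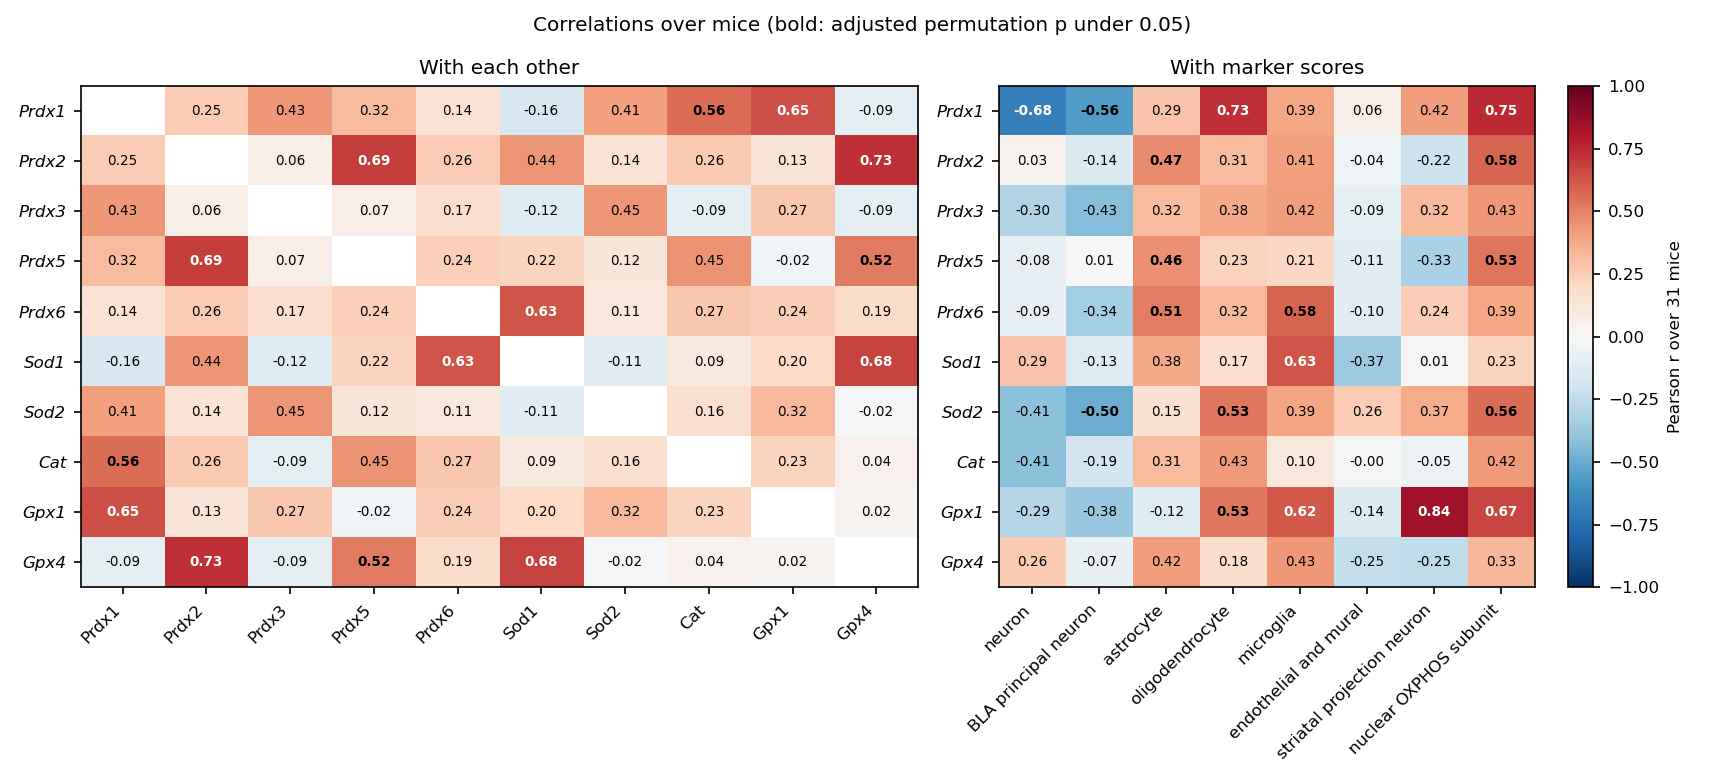
Pearson r over 31 mice (colour and printed value) of the 10 genes with each other (left) and with 8 marker scores (right), after removal of sex and line from log2 CPM, with bold print for an adjusted permutation p under 0.05. The right panel holds 18 bold cells, from -0.68 to 0.84, and the left 7 bold pairs, each shown on both sides of the diagonal.

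The genes whose pattern over the 31 mice was most like each member were taken from the 10964 other genes with a mean of at least 5 CPM, as the 3 with the highest r. For Gpx1 they were Klhl13 (r = 0.90), Pbx3 (0.876) and Tac1 (0.861), and Tac1, the precursor of substance P, is 1 of the striatal markers. For Prdx1 they were Tpt1 (0.925), Scd2 (0.913) and Syf2 (0.908), and for Sod1 Eef2 (0.932), Atp5k (0.899) and Sdhb (0.883). For Prdx2 they were Ndufb7 (0.759), the member Gpx4 (0.733) and Rps4x (0.721), and for Prdx5 the member Prdx2 (0.692), Ndufa3 (0.688) and Rpl7 (0.676). For Gpx4 they were Vdac3 (0.781), Ndufa13 (0.753) and Aes (0.746), and for Prdx6 Ptcd1 (0.796), Uqcr10 (0.775) and Anapc11 (0.775). Several of these genes encode subunits of the respiratory chain or its ATP synthase (Ndufb7, Ndufa3, Ndufa13, Uqcr10, Sdhb and Atp5k). How often such genes would be nearest to other genes was not computed. With the OXPHOS score itself, Prdx2 and Prdx5 passed by r, as given above. Sod1 (r = 0.226), Gpx4 (0.334) and Prdx6 (0.389) did not (adjusted permutation p = 0.317, 0.136 and 0.0791). For Prdx3 they were Mtx3 (0.744), Bhlhe41 (0.741) and Rbm12b2 (0.728), for Sod2 Abcg1 (0.753), Tmem59 (0.74) and Egln1 (0.713), and for Cat Nmral1 (0.736), Ech1 (0.727) and Appl2 (0.726). The closest member was among the 10 nearest genes for Prdx5, Prdx2 and Gpx4, at ranks 1, 2 and 7, and ranked from 61 to 762 for the other 7.

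Some counts could be shared with other genes. The last 500 bases of Gpx4 matched the pseudogene Gpx4-ps2 over 500 bases at 99.8% identity, and that pseudogene was not counted separately here, so that reads from both would be counted together. Those of Sod1 matched the pseudogene Gm8566 over 428 bases at 98.4%, which had a median of 1 read per mouse against 2873 for Sod1. The end of Prdx2 overlaps Junb on the other strand over 176 bases. Junb had a median of 167 reads against 1462 for Prdx2, and whether the counting used strand is not given in the sources used here. The end of the longest Sod2 transcript shares a stretch of 186 to 193 bases with 7 other genes at 95.2% to 96.8% identity.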

How the data were processed

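RNA from pooled left and right BLA punches of 31 mice was sequenced by QuantSeq. Mapping by the authors was to GRCm38 with STAR, and they deposited Salmon's estimated counts per gene, 1 file for each mouse, with no normalization or filter. Groups, line, sex and age came from the labels. Counts were rounded to whole numbers, symbols and positions came from a GENCODE annotation of GRCm38, which named 48349 of 48709 genes, and the 17428 genes that reached 10 reads in 20% of mice or more were tested. The two-sided quasi-likelihood F test of edgeR 4.0.16 (R 4.3.3, TMM normalization) was fitted with sex, line and genotype, and p-values were adjusted over all genes tested. The authors used DESeq2 with 5 principal components of alignment statistics, which were not used here, and a threshold of p under 0.005. They also state that outlying samples, with a connectivity Z-score under -2, were removed. Here the mouse at -4.74 was kept in the main fits and correlations, and left out only in an alternative. DESeq2 1.42.0 and sva 3.50.0 (5 surrogate variables) served in alternatives. CPM are TMM-normalized, log2 CPM used a prior count of 2, and SEs come from the model. Correlations and permutations used numpy 2.4.6 and scipy 1.17.1, and figures matplotlib 3.10.9. The median depth was 7387585 counts per mouse, and members had medians of 113 to 2873 reads, so that Prdx3 and Cat carried the most counting error. No libraries were duplicates (the closest pair had a chi-square of 9.56 per gene). Members, gene lists and marker lists were chosen with earlier results of these data known. Pathway genes were named if their unadjusted p for genotype was under 0.05 or their adjusted p for line or sex was, and 3 nearest genes were named per member. Steps were tested on simulated data.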

Additional observations from a re-analysis of the deposited data

Results flagged for a closer look

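Each member was checked for single mice standing apart in the 4 groups by genotype and line, which hold 7 or 8 mice, with Dixon's test at the 95% level. Of 40 groups 4 had such a mouse, and chance gives about 1 in 20. In WT mice of the line labelled 1, the lowest Prdx3 value was 8.88 CPM and the next was 14.7 CPM (gap over range 0.539, critical value 0.526). In the same group the highest Sod1 value was 512.5 CPM and the next was 418.0 CPM. In WT mice of the line labelled 3, the highest Sod1 value was 466.4 CPM and the next was 377.7 CPM. In CYFIP1 OE mice of the line labelled 3, the lowest Gpx1 value was 48.2 CPM and the next was 121.8 CPM. The last of these came from the mouse of low connectivity.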

How the results depend on the processing

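The replicate numbers follow accession order and pair no mice, so no analysis paired by replicate was possible. Mice could be matched only by name group: a fit with that group as a term, on the 9 WT and 9 CYFIP1 OE mice of groups holding both genotypes, gave 0 members at an unadjusted p under 0.05 for genotype. Of these mice 16 were of the line labelled 3, so this fit says little about the line labelled 1. For genotype, line, sex and the interaction, 0 members had an adjusted p under 0.05 under each alternative run. At an unadjusted p under 0.05, the count for genotype moved from 0 to 1 without a filter on low counts (Cat), with 5 surrogate variables (Prdx1) and in the line labelled 3 alone (Prdx6). Over all genes, 2534 of 32936, 993 of 17428 and 1113 of 17324 had such a p in these fits. In the main fit 750 of 17428 did. The count for the interaction moved from 1 to 0 without the mice aged 77 days and without the mouse of low connectivity. Without that mouse, correlations between members past the threshold went from 7 to 11 and those with marker scores from 18 to 30. The cause was not tested, and the other 53 recomputed counts stayed within 1.5 times the reported one. Single members changed sign in 16 of 180 recomputed log2 fold changes, all small. For genotype, Prdx1 was 0.13 with surrogate variables, 0.12 with marker scores, 0.03 without the mouse of low connectivity and 0.01 in the line labelled 3. With marker scores, Prdx2 was -0.01, Prdx5 -0.02, Sod1 -0.02 and Gpx4 -0.02. In the name groups that hold both genotypes, Prdx5 was -0.0021 and Gpx1 -0.14. In the line labelled 1, Prdx3 was -0.10, Prdx6 -0.06 and Gpx1 -0.13, and in the line labelled 3 Prdx5 was -0.07. For line, Prdx3 was 0.01 without the mouse of low connectivity, and Prdx6 was -0.10 in WT mice alone. Cat and Sod2 stayed negative for genotype in each alternative, from -0.35 to -0.14 and from -0.13 to -0.03. The median log2 fold change of all genes moved by under 0.1 in each. Depth limits Prdx3 and Cat most.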

Other observations

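The mouse of low connectivity (Z = -4.74) did not have low levels of all members. Among the 31 mice it was lowest for Prdx1 (75.1 CPM) and Gpx1 (48.2 CPM), and 2 mice were below it for Sod2 (61.1 CPM). It was highest for Prdx6 (222.4 CPM) and second highest for Sod1 (555.3 CPM), and 28 mice were below it for Gpx4 (170.6 CPM). Prdx2 (194.4 CPM) and Prdx5 (121.7 CPM) lay in the middle of the 31. The cause of this pattern was not tested.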
